A study of Danio rerio with 16 samples.

Results

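The genes of fatty acid oxidation and of the kinases that hold back pyruvate oxidation were followed in whole zebrafish embryos that lack both hnf4a and hnf4b. The set has 29 genes out of 36109 gene symbols counted. They were taken by symbol, by the known role of the product: the carnitine shuttle (cpt1aa, cpt1ab, cpt1b, cpt2), the acyl-CoA dehydrogenases (acadm, acadl, acadvl, acads, acadsb, ivd), the enzymes of the later mitochondrial steps (hadh, hadhaa, hadhab, hadhb, echs1, acaa2), peroxisomal enzymes (acox3, ehhadh, acaa1), auxiliary enzymes for unsaturated fatty acids (decr1, eci1, eci2), the electron transfer flavoproteins and their dehydrogenase (etfa, etfb, etfdh) and the pyruvate dehydrogenase kinases (pdk1, pdk2a, pdk2b, pdk3b). RNA was sequenced from 16 libraries in 4 groups of 4. These were hnf4a, hnf4b knockout embryos made with CRISPR/Cas9 and their untreated siblings, each at 48 and at 34 hours post-fertilisation (hpf). The labels do not give the genotypes among the siblings, the alleles, the number of embryos per library or the clutch of each replicate. The spread behind each p-value is therefore that of these libraries, and it may be technical. The labels used here give no batch apart from the stage, so a batch difference between the stages cannot be told from stage.

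Fatty acids that are to be burned are first bound to coenzyme A and then, if long, carried into mitochondria as carnitine esters. There they are shortened in repeated rounds of dehydrogenation, hydration, a further oxidation and thiolysis, while the electron transfer flavoproteins pass electrons to the respiratory chain. Pyruvate dehydrogenase kinases phosphorylate and inactivate the enzyme complex that turns pyruvate into acetyl-CoA, which favours fatty acids over glucose as fuel, and in mammals some of these kinases are raised by fasting. Hnf4 factors, a class of nuclear receptors, are active in liver, gut and, in fish, the yolk syncytial layer, the tissue that passes yolk lipid to the embryo. Yolk lipid is the main store from which the embryo draws its fatty acids at these stages.

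Total counts per library were 40677285 to 43194625 in knockouts and 36186542 to 38101069 in siblings at 48 hpf, and 34588058 to 41000857 in knockouts and 35586032 to 42407778 in siblings at 34 hpf. Knockout and sibling libraries did not part on the RNA of either targeted gene. The log2 fold change, knockout over sibling, was -0.15 ± 0.27, adjusted p = 0.789 at 48 hpf for hnf4a and -0.83 ± 0.49, adjusted p = 0.329 for hnf4b, and at 34 hpf -0.08 ± 0.27, adjusted p = 0.897 for hnf4a and -0.91 ± 0.48, adjusted p = 0.269 for hnf4b, by edgeR's quasi-likelihood test with Benjamini-Hochberg adjustment. In these libraries they therefore do not check the genotype labels. Markers of 9 tissues were counted (hepatocytes, yolk syncytial layer, skeletal muscle, heart, intestine, pronephros, neurons, erythroid cells and epidermis), and no marker was at 0 counts over a whole group. The yolk syncytial layer markers took 0.0567 to 0.165% of counts in knockouts and 1.14 to 1.38% in siblings at 48 hpf, and 0.117 to 0.402% in knockouts and 1.24 to 1.64% in siblings at 34 hpf. In whole embryos fewer cells of a type and less RNA per cell cannot be told apart.

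In the knockouts the oxidation enzymes were modestly lower in part and a single kinase gene, pdk2b, was several-fold higher. Of the 29 genes, 28 passed the filter on low counts. The exception was acadsb, a short and branched chain acyl-CoA dehydrogenase, with 11 reads over the 4 knockout libraries and 21 over the 4 sibling libraries at 48 hpf, and 22 and 9 over the knockout and sibling libraries at 34 hpf. At 48 hpf 7 genes fell and 2 rose, which is 32.1% of the 28, against 10.0% of all 24084 genes tested (5.28% lower and 4.76% higher). This set and the further gene lists below were chosen with earlier results of these data known. Shares set against all genes are therefore descriptive and are not independent evidence about the set or the lists. At 34 hpf 1 gene fell and 1 rose (7.14%, against 9.30% of all genes tested, 5.21% lower and 4.09% higher), a share below that of all genes. With the replicate block it was 1 higher and 3 lower, against 10.1% of all genes, and without knockout replicate 4 it was 1 higher and 6 lower, against 13.1%, both above the share of all genes. With upper quartile scaling 56.1% of the calls over all genes at 34 hpf were higher, against 44.0% with TMM, and the calls of the set at that stage did not change. The knockout libraries lay wholly outside the range of the sibling libraries for 10 of the 28 at 48 hpf (8 lower and 2 higher, against 19.2% of all genes). At 34 hpf they did so for 4 of the 28 (3 lower and 1 higher, against 14.2% of all genes), a share close to that of all genes.

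Among the 24 oxidation genes tested, ivd included, the log2 fold change was below 0 for 23 at 48 hpf, with a median of -0.33. At 34 hpf it was below 0 for 18, with a median of -0.12. Of all genes tested 49.9% were below 0 at 48 hpf and 48.3% at 34 hpf. The genes of the set are not independent, since single libraries stood apart over many of them at once, as given below. The median over all genes tested was 0.00 at 48 hpf and 0.01 at 34 hpf. The sizes were small: the values ran from -0.73 (hadh) to 0.04 (ivd) at 48 hpf and from -0.52 (hadh) to 0.08 (cpt1ab) at 34 hpf, less than a log2 unit in each case.

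**Figure D1:**
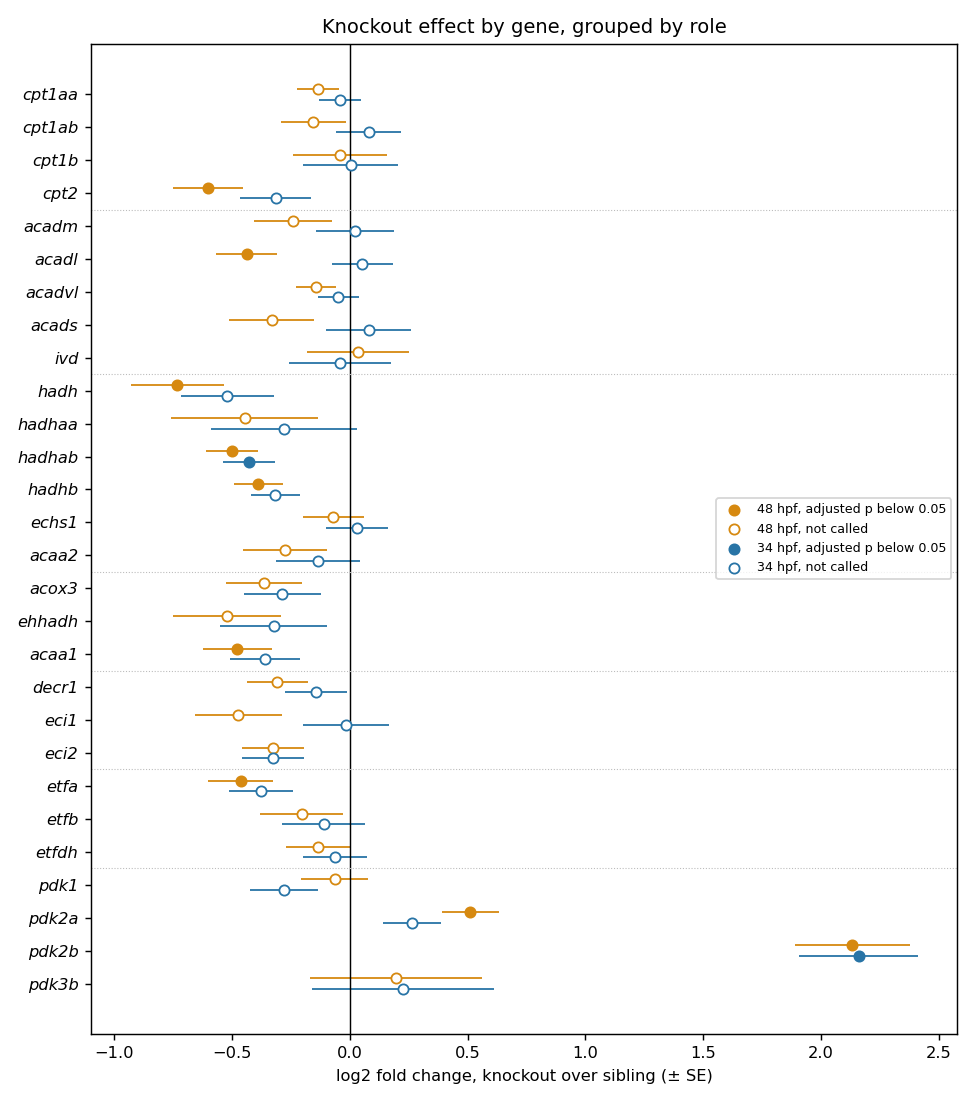
Log2 fold change, knockout over sibling, with its standard error for the 28 genes tested, at 48 hpf (orange) and 34 hpf (blue), in blocks by role. Filled points passed an adjusted p of 0.05. The point of pdk2b lies above 2 at both stages (2.13 and 2.16), while the oxidation genes lie between -0.73 and 0.08.

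The kinase gene pdk2b showed the largest change of the set at both stages. Its product is a co-ortholog of the mammalian kinase PDK2, which blocks the pyruvate dehydrogenase complex in many tissues. At 48 hpf the knockout libraries held 9.14, 6.88, 8.91 and 7.09 CPM and the sibling libraries 2.44, 1.55, 1.45 and 1.86 CPM, where CPM is the count relative to library size after TMM scaling and libraries are given in the order of replicates 1 to 4. All 4 knockout libraries lay above all 4 sibling libraries, and the lowest knockout value was 6.88 CPM against a highest sibling value of 2.44 CPM. The fold was 4.39 (log2 fold change 2.13 ± 0.24 SE, adjusted p = 2.78e-05 by edgeR, over all genes). At 34 hpf the values were 2.58, 5.08, 5.56 and 6.34 CPM in knockouts and 0.984, 1.25, 1.05 and 1.08 CPM in siblings, again with no overlap, and knockout replicate 1 was the lowest of its group. The fold was 4.47 (2.16 ± 0.25, adjusted p = 3.75e-05). The call held in each of the 8 omissions of a single library at either stage, with log2 fold changes of 2.03 to 2.27 at 48 hpf and 2.01 to 2.37 at 34 hpf. The level is low: the 4 libraries of a group held 1381 reads in knockouts and 275 in siblings at 48 hpf, and 742 in knockouts and 162 in siblings at 34 hpf.

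In the RefSeq gene table of assembly GRCz12tu, which is not the build the counts were made on, pdk2b overlaps another gene, si:ch211-264f5.2. That gene had mean levels of 0.604 CPM in knockouts and 0.300 CPM in siblings at 48 hpf, and 1.32 CPM in knockouts and 0.567 CPM in siblings at 34 hpf. It was not called at either stage (log2 fold change 1.01, adjusted p = 0.385 at 48 hpf, against 1.22, adjusted p = 0.254 at 34 hpf, in edgeR's test). How reads of overlapping genes were assigned, and whether strand was used, is not given in the sources used here.

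The paralog pdk2a, the other zebrafish counterpart of PDK2, rose at 48 hpf by a smaller amount. It stood at 51.3, 53.1, 54.3 and 67.1 CPM in knockouts and 37.2, 36.7, 38.7 and 45.7 CPM in siblings, without overlap (1.43-fold, log2 fold change 0.51 ± 0.12, adjusted p = 0.0121 in edgeR's test). Knockout replicate 4 was the highest. The call was lost without sibling replicate 1 (0.45, adjusted p = 0.0521). At 34 hpf the values overlapped, with 34.5, 41.0, 47.9 and 31.9 CPM in knockouts and 29.9, 32.5, 32.4 and 34.6 CPM in siblings (0.26 ± 0.12, adjusted p = 0.201), and the gene was called there when only knockout replicates 2 and 3 were kept (0.46, adjusted p = 0.0231), an alternative added after the data were seen. The test of the difference between the stages did not call pdk2a (0.25 ± 0.17, adjusted p = 0.866).

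For the remaining kinases no difference between the genotypes was called. The gene pdk1, whose mammalian counterpart responds to hypoxia, had 53.4, 36.8, 39.1 and 39.1 CPM in knockouts and 38.4, 44.1, 39.6 and 54.0 CPM in siblings at 48 hpf (-0.06 ± 0.14, adjusted p = 0.845). At 34 hpf it had 22.1, 23.4, 32.4 and 23.3 CPM in knockouts and 28.0, 29.8, 33.3 and 31.7 CPM in siblings (-0.28 ± 0.14, adjusted p = 0.258). The 3 lower knockout values lay below the sibling range at 34 hpf, and replicate 3 lay inside it. The gene pdk3b was near the limit of counting, with 0.580, 0.431, 0.561 and 0.982 CPM in knockouts and 0.751, 0.525, 0.413 and 0.539 CPM in siblings at 48 hpf and 0.332, 0.341, 0.451 and 0.273 CPM in knockouts and 0.383, 0.326, 0.291 and 0.196 CPM in siblings at 34 hpf. Its log2 fold changes were 0.20 ± 0.37, adjusted p = 0.810, and 0.23 ± 0.39, adjusted p = 0.795, on 54 to 110 reads per knockout group and 44 to 84 per sibling group. Outside the set, the kinase genes pdk4 and pdk3a were not called either. Their log2 fold changes at 48 hpf were -0.06 ± 0.09, adjusted p = 0.756 for pdk4 and 0.06 ± 0.10, adjusted p = 0.790 for pdk3a, and those at 34 hpf 0.21 ± 0.09, adjusted p = 0.174 for pdk4 and -0.12 ± 0.11, adjusted p = 0.550 for pdk3a, all by edgeR.

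**Figure D2:**
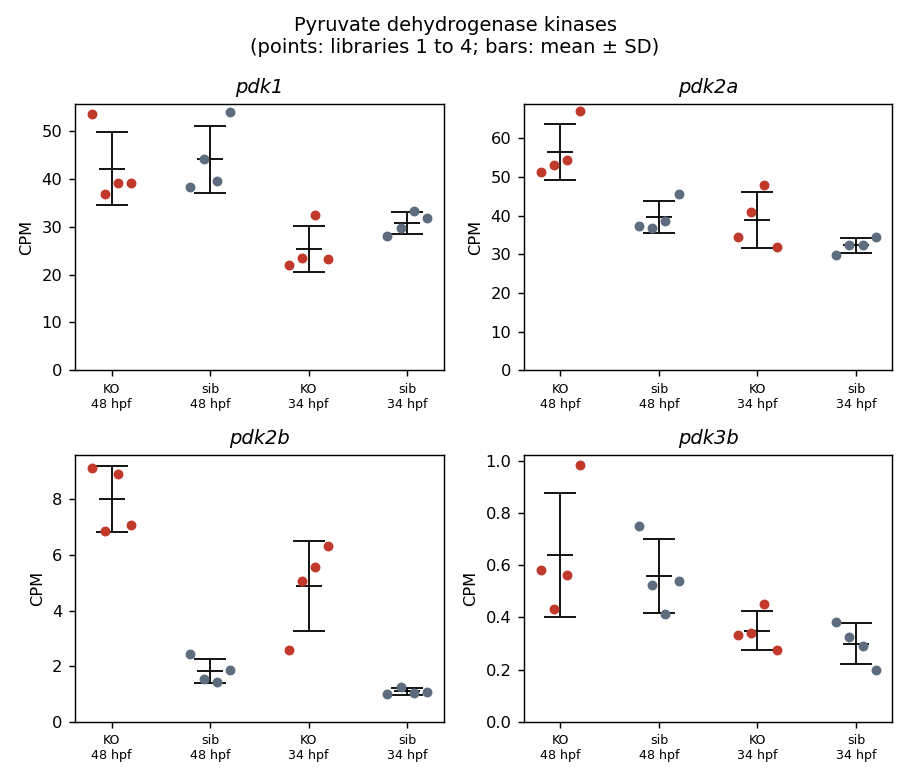
CPM of the 4 pyruvate dehydrogenase kinase genes in each library (points, replicates 1 to 4 from left to right), with the mean and SD of each group of 4, in knockouts (KO, red) and siblings (sib, grey). The knockout points of pdk2b (6.88 to 9.14 CPM at 48 hpf and 2.58 to 6.34 CPM at 34 hpf) lie above its sibling points (1.45 to 2.44 CPM at 48 hpf and 0.984 to 1.25 CPM at 34 hpf).

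In the carnitine shuttle the gene of the inner enzyme fell and those of the entry enzymes were not called. Carnitine palmitoyltransferase 2, encoded by cpt2, moves the acyl group from its carnitine ester back to coenzyme A inside the mitochondrion. At 48 hpf cpt2 had 7.47, 12.9, 9.87 and 11.1 CPM in knockouts and 15.8, 17.4, 16.7 and 12.9 CPM in siblings, a fall to 0.659 of the sibling level (-0.60 ± 0.15, adjusted p = 0.0154 in edgeR's test). The groups met at one point, since knockout replicate 2 (12.9 CPM) reached sibling replicate 4 (12.9 CPM). At 34 hpf all knockout values, 10.4, 10.3, 9.45 and 10.5 CPM, lay below the sibling values, 14.1, 14.2, 10.9 and 11.5 CPM, but the gene was not called (-0.31 ± 0.15, adjusted p = 0.216). The 48 hpf call was lost without sibling replicate 2 (adjusted p = 0.0566) or 3 (adjusted p = 0.0502).

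The outer-membrane carnitine palmitoyltransferases 1, which commit long-chain fatty acids to oxidation, showed log2 fold changes close to 0. The liver-type gene cpt1aa averaged 28.8 ± 2.74 CPM in knockouts and 31.6 ± 1.04 CPM in siblings at 48 hpf (-0.13 ± 0.09, adjusted p = 0.392; SD, n = 4) and 30.7 ± 2.02 CPM in knockouts and 31.7 ± 2.86 CPM in siblings at 34 hpf (-0.04 ± 0.09, adjusted p = 0.837 by edgeR). Its paralog cpt1ab had log2 fold changes of -0.15 ± 0.14 at 48 hpf and 0.08 ± 0.14 at 34 hpf, and the muscle-type gene cpt1b -0.04 ± 0.20 and 0.00 ± 0.20.

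Of the acyl-CoA dehydrogenases, which open each round of oxidation, acadl fell at 48 hpf. It encodes the long-chain enzyme. The knockout libraries had 18.1, 24.4, 24.3 and 25.0 CPM and the sibling libraries 29.1, 33.1, 31.7 and 30.6 CPM, without overlap, and replicate 1 was the low knockout library. The log2 fold change was -0.44 ± 0.13, adjusted p = 0.0383 in edgeR's test. At 34 hpf it was 0.05 ± 0.13, adjusted p = 0.860, with 17.4, 21.1, 23.4 and 28.1 CPM in knockouts around the narrower sibling values of 21.9, 20.2, 23.3 and 21.3 CPM. The 48 hpf call held without sibling replicate 1 and was lost in the omission of each of sibling replicates 2, 3 and 4 and of knockout replicates 1 to 4, with log2 fold changes over all 8 omissions of -0.50 to -0.37 and a highest adjusted p of 0.108.

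The medium-chain gene acadm, the short-chain gene acads, the very long-chain gene acadvl and ivd, which acts on a product of leucine and is not part of fatty acid oxidation proper, were not called at either stage. Their log2 fold changes at 48 hpf were -0.24 ± 0.17, -0.33 ± 0.18, -0.15 ± 0.09 and 0.04 ± 0.22 in that order, and those at 34 hpf 0.02 ± 0.16, 0.08 ± 0.18, -0.05 ± 0.09 and -0.04 ± 0.22. At 34 hpf the knockout libraries of acadm spread from 32.4 CPM in replicate 1 to 71.4 CPM in replicate 4, while the siblings lay at 46.0 to 49.7 CPM. The abundant acadvl held 86.8 ± 4.84 CPM in knockouts and 96.0 ± 3.94 CPM in siblings at 48 hpf (SD, n = 4).

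The mitochondrial trifunctional protein, which carries out the last steps of long-chain oxidation, was lower in the knockouts at the level of its transcripts for part of its genes. Its alpha subunit is encoded by the paralogs hadhab and hadhaa and its beta subunit by hadhb. The gene hadhab fell at both stages. At 48 hpf it had 85.6, 96.8, 118 and 99.9 CPM in knockouts and 133, 161, 150 and 122 CPM in siblings, without overlap (-0.50 ± 0.11, adjusted p = 0.00767), and the call held in all 8 omissions of a single library (highest adjusted p = 0.0355). At 34 hpf it had 89.1, 108, 95.5 and 96.5 CPM in knockouts and 147, 135, 123 and 120 CPM in siblings, again without overlap (-0.43 ± 0.11, adjusted p = 0.0203). That call was lost without sibling replicate 1 (-0.37, adjusted p = 0.0735), without sibling replicate 2 (-0.42, adjusted p = 0.0607) and without knockout replicate 3 (-0.42, adjusted p = 0.0568).

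The beta subunit gene hadhb fell at 48 hpf, with 62.9, 74.6, 78.1 and 74.2 CPM in knockouts and 104, 94.7, 89.3 and 91.1 CPM in siblings (-0.39 ± 0.10, adjusted p = 0.0231 in edgeR's test). All 4 knockout libraries lay below the siblings there and at 34 hpf, where the values were 55.5, 68.2, 74.5 and 80.7 CPM in knockouts and 91.3, 85.4, 82.6 and 87.9 CPM in siblings (-0.32 ± 0.10, adjusted p = 0.0651, not called). The 48 hpf call was lost without sibling replicate 1 (adjusted p = 0.0530) or 2 (adjusted p = 0.0570), and at 34 hpf the gene was called without knockout replicate 4 (-0.39, adjusted p = 0.0141).

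The other alpha subunit gene, hadhaa, was not called (-0.45 ± 0.31, adjusted p = 0.425 at 48 hpf, against -0.28 ± 0.31, adjusted p = 0.660 at 34 hpf). Its values differed with the replicate number. At 48 hpf it had 26.2, 52.0, 60.4 and 35.8 CPM in knockouts and 46.2, 80.2, 70.8 and 40.4 CPM in siblings, so that replicates 2 and 3 were high and 1 and 4 low in both genotypes. At 34 hpf it had 46.5, 67.0, 41.0 and 31.2 CPM in knockouts and 68.1, 80.7, 34.0 and 42.4 CPM in siblings, and replicates 1 and 2 were high in both. The same pattern over replicates was seen in ivd at 48 hpf, with 31.6, 49.7, 47.7 and 30.5 CPM in knockouts and 31.3, 48.4, 47.2 and 28.7 CPM in siblings. With the replicate number as a block hadhaa was still not called, either at 48 hpf (-0.46, adjusted p = 0.0534) or at 34 hpf (-0.25, adjusted p = 0.293). In the RefSeq table hadhaa and hadhb are direct neighbours, the only neighbouring pair among the 29 genes.

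Of the enzymes for short chains, hadh fell at 48 hpf. It encodes the dehydrogenase of the second oxidation step for medium and short chains. The knockout libraries had 29, 29.2, 29.8 and 42.5 CPM, with replicate 4 apart from the others, and the siblings 61.4, 48.6, 45.9 and 61.0 CPM. The groups did not overlap, and the log2 fold change of -0.73 ± 0.20 (adjusted p = 0.0257 by edgeR) was the lowest of the set. At 34 hpf hadh had 27.1, 37.0, 50.0 and 55.8 CPM in knockouts and 52.3, 50.4, 71.8 and 69.2 CPM in siblings, with overlap (-0.52 ± 0.20, adjusted p = 0.115). With the replicate block it was called there (-0.55, adjusted p = 0.0101), and also without knockout replicate 4 (-0.68, adjusted p = 0.0325). The 48 hpf call was lost without sibling replicate 1 or 4 or knockout replicate 1, 2 or 3 (log2 fold changes of -0.89 to -0.67 over the 8 omissions, highest adjusted p = 0.0726). The hydratase gene echs1 and the thiolase gene acaa2 were not called, with -0.07 ± 0.13 and -0.27 ± 0.18 at 48 hpf and 0.03 ± 0.13 and -0.14 ± 0.18 at 34 hpf.

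**Figure D3:**
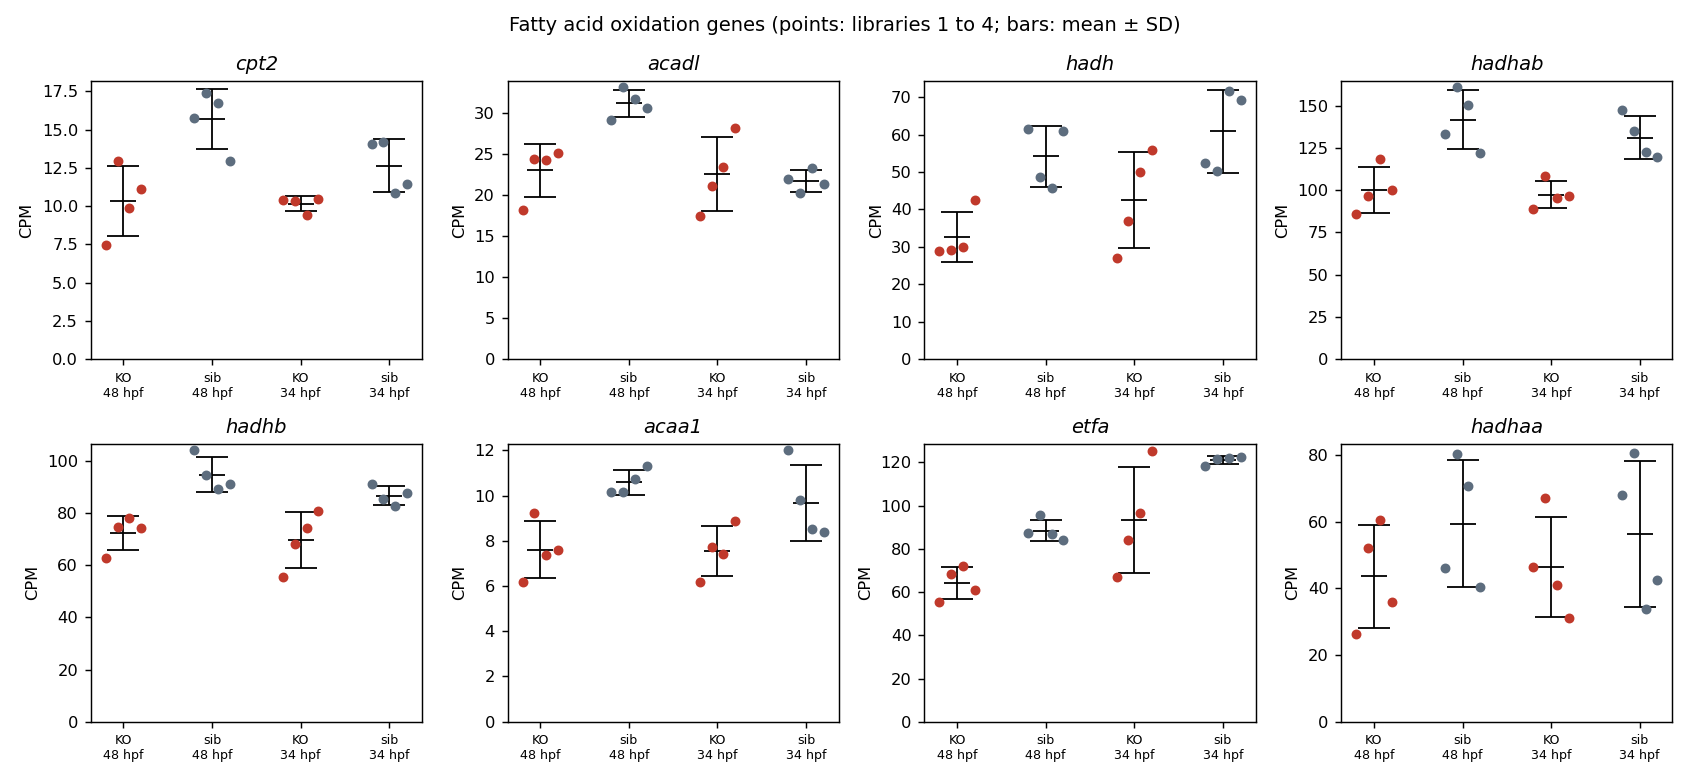
CPM in each library (points, replicates 1 to 4 from left to right) with the mean and SD of each group of 4, in knockouts (KO, red) and siblings (sib, grey), for the 7 oxidation genes that fell at 48 hpf and for hadhaa. The knockout points of hadhab lie at 85.6 to 118 CPM and its sibling points at 122 to 161 CPM at 48 hpf, while those of hadhaa split by replicate number in both genotypes.

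Peroxisomes shorten very long and branched fatty acids by a similar chain of steps. The peroxisomal thiolase gene acaa1 fell at 48 hpf, with 6.19, 9.25, 7.38 and 7.60 CPM in knockouts and 10.2, 10.1, 10.7 and 11.3 CPM in siblings, without overlap (-0.48 ± 0.15, adjusted p = 0.0489 in edgeR's test). This call lay closest to the threshold: it was lost with the replicate block (adjusted p = 0.0799), with upper quartile scaling (adjusted p = 0.0524), with no filter on low counts (adjusted p = 0.0693) and in 7 of the 8 omissions, without any of sibling replicates 1 to 4 or knockout replicates 1, 3 and 4 (adjusted p up to 0.112). At 34 hpf acaa1 had 6.19, 7.72, 7.39 and 8.88 CPM in knockouts and 12.0, 9.80, 8.51 and 8.40 CPM in siblings (-0.36 ± 0.15, adjusted p = 0.147). The branched-chain oxidase gene acox3 (-0.37 ± 0.16, adjusted p = 0.177 at 48 hpf, against -0.29 ± 0.16, adjusted p = 0.313 at 34 hpf) and the bifunctional enzyme gene ehhadh (-0.52 ± 0.23, adjusted p = 0.174 and -0.32 ± 0.23, adjusted p = 0.436) were not called. Without knockout replicate 4, acox3 was called at 48 hpf (-0.54, adjusted p = 0.0417).

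The auxiliary enzymes move or remove double bonds so that unsaturated fatty acids, which are abundant in fish, can enter the cycle. None of decr1, eci1 and eci2 was called in the knockouts. For eci1 the 4 knockout libraries (10.8 to 17.9 CPM) lay below the siblings (19.3 to 23.1 CPM) at 48 hpf (-0.47 ± 0.18, adjusted p = 0.121), and for eci2 likewise (15.1 to 20.5 CPM in knockouts and 22.1 to 27.4 CPM in siblings, -0.33 ± 0.13, adjusted p = 0.134). The values at 34 hpf were -0.02 ± 0.18, adjusted p = 0.974 for eci1 and -0.32 ± 0.13, adjusted p = 0.140 for eci2, and without knockout replicate 4 eci2 was called (-0.46, adjusted p = 0.0165). For the dienoyl reductase gene decr1 they were -0.31 ± 0.13 at 48 hpf and -0.14 ± 0.13 at 34 hpf.

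Of the electron transfer genes, which take electrons from the acyl-CoA dehydrogenases, the alpha subunit gene etfa fell at 48 hpf. It had 55.2, 68.1, 72.1 and 61.0 CPM in knockouts and 87.3, 95.5, 86.9 and 84.2 CPM in siblings, without overlap (-0.46 ± 0.14, adjusted p = 0.0406 in edgeR's test). At 34 hpf it had 67.1, 84.2, 96.5 and 125 CPM in knockouts and a narrow 118, 122, 122 and 122 CPM in siblings, with 3 knockout libraries below and replicate 4 above the siblings (-0.38 ± 0.14, adjusted p = 0.0986). With the replicate block the 34 hpf value was called (-0.41, adjusted p = 0.0476), and without knockout replicate 4 it was -0.55, adjusted p = 0.00303. The 48 hpf call held without knockout replicate 3 and was lost without any other single library of the compared groups, sibling replicates 1 to 4 and knockout replicates 1, 2 and 4 (adjusted p up to 0.115).

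The beta subunit gene etfb was not called (-0.20 ± 0.18, adjusted p = 0.538 at 48 hpf, against -0.11 ± 0.18, adjusted p = 0.776 at 34 hpf). Its knockout libraries at 34 hpf ran over 104, 140, 152 and 250 CPM and the siblings over 167, 180, 179 and 172 CPM, and without knockout replicate 4 it was called lower (-0.40, adjusted p = 0.0221). The dehydrogenase gene etfdh, which hands the electrons to ubiquinone, had -0.14 ± 0.14, adjusted p = 0.607 at 48 hpf, against -0.06 ± 0.14, adjusted p = 0.839 at 34 hpf.

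Single libraries, most of all in the knockouts, stood apart over many genes of the set at once. At 48 hpf knockout replicate 1 was the lowest of its group for 19 of the 28 genes (67.9%, against 30.5% of all genes tested). At 34 hpf knockout replicate 1 was the lowest for 21 (75.0%, against 26.9%), and replicate 4 the highest for 15 (53.6%, against 33.9%). These positions were taken after TMM scaling, whose factors were most extreme in knockout replicates 1 (1.06) and 4 (0.892) of 34 hpf. At 48 hpf the factor of knockout replicate 1 was 1.04. In shares of unscaled counts, knockout replicate 1 was still the lowest of its group for most roles. The exceptions were the peroxisomal genes and the kinases at 48 hpf, and the carnitine shuttle and the kinases at 34 hpf. Knockout replicate 4 of 34 hpf was, in unscaled shares, the highest of its group for the peroxisomal, auxiliary and electron transfer genes. It was the lowest for the carnitine shuttle and the kinases. The marker shares below are also unscaled. Sibling libraries also stood out. At 48 hpf sibling replicate 3 was the lowest for 12 genes (42.9%, against 20.8%) and replicate 4 the highest for 12 (42.9%, against 25.7%). Sibling replicate 3 at 34 hpf was the highest for 11 (39.3%, against 23.7%). At 34 hpf the most frequent lowest sibling library was replicate 1, for 10 (35.7%, against 26.0%).

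Among the knockout libraries the markers of Hnf4-expressing tissues did not share one order. At 48 hpf the share of yolk syncytial layer markers was 0.0567, 0.130, 0.165 and 0.0967% in knockout replicates 1 to 4, and at 34 hpf 0.117, 0.265, 0.174 and 0.402%. That of hepatocyte markers was 0.0242, 0.0532, 0.0434 and 0.0261% at 48 hpf and 0.0520, 0.113, 0.10 and 0.138% at 34 hpf. Replicate 1 was the lowest in these lists at both stages and replicate 4 the highest at 34 hpf. The intestine markers ran the other way, with 0.00590, 0.00524, 0.00539 and 0.00581% at 48 hpf and 0.00754, 0.00628, 0.00660 and 0.00570% at 34 hpf, so that replicate 1 was the highest at both stages and replicate 4 the lowest at 34 hpf. Of the yolk syncytial layer list 7 of the 8 markers tested fell at either stage, and of the hepatocyte list 8 of 9 at 48 hpf and 6 of 9 at 34 hpf. Of all genes tested 5.28% fell at 48 hpf and 5.21% at 34 hpf. Of 7 intestine markers 3 fell at 48 hpf and 4 at 34 hpf, with 0.00524 to 0.00590% of counts in knockouts and 0.0130 to 0.0220% in siblings at 48 hpf, and 0.00570 to 0.00754% in knockouts and 0.0267 to 0.0328% in siblings at 34 hpf. Skeletal muscle, a tissue rich in oxidation enzymes, held 4.82 to 5.56% of counts in knockouts and 5.70 to 6.13% in siblings at 48 hpf. At 34 hpf it held 4.18 to 5.15% in knockouts and 4.13 to 4.77% in siblings. Of its 12 markers 2 fell at 48 hpf (16.7% called, against 10.0% of all genes tested) and 1 at 34 hpf (8.33%, against 9.30%).

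Markers of further tissues were called in part, where 10.0% of all genes tested were called at 48 hpf and 9.30% at 34 hpf. At 48 hpf 3 of 8 neuron markers fell (0.143 to 0.179% of counts in knockouts and 0.179 to 0.198% in siblings) and 4 of 8 epidermis markers rose (2.09 to 2.29% in knockouts and 1.66 to 1.85% in siblings). At 34 hpf 0 neuron markers fell (0.0732 to 0.102% in knockouts and 0.0901 to 0.0916% in siblings) and 1 epidermis marker rose (2.09 to 2.54% in knockouts and 1.92 to 2.14% in siblings). Of 8 pronephros markers 1 rose and 1 fell at 48 hpf, and 1 rose and 2 fell at 34 hpf. Of the 7 heart markers 1 rose at 34 hpf and 0 was called at 48 hpf, and no erythroid marker was called by edgeR at either stage. The erythroid shares varied widely within groups, and replicate 4 was the lowest of each group. They were 0.0481 to 0.391% in knockouts and 0.0518 to 0.394% in siblings at 48 hpf. At 34 hpf they were 0.0354 to 0.205% in knockouts and 0.0325 to 0.239% in siblings. The shares called at 34 hpf in the epidermis list (12.5%) and the heart list (14.3%) were close to that of all genes. The part of these tissues in the oxidation transcripts was not tested.

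**Figure D4:**
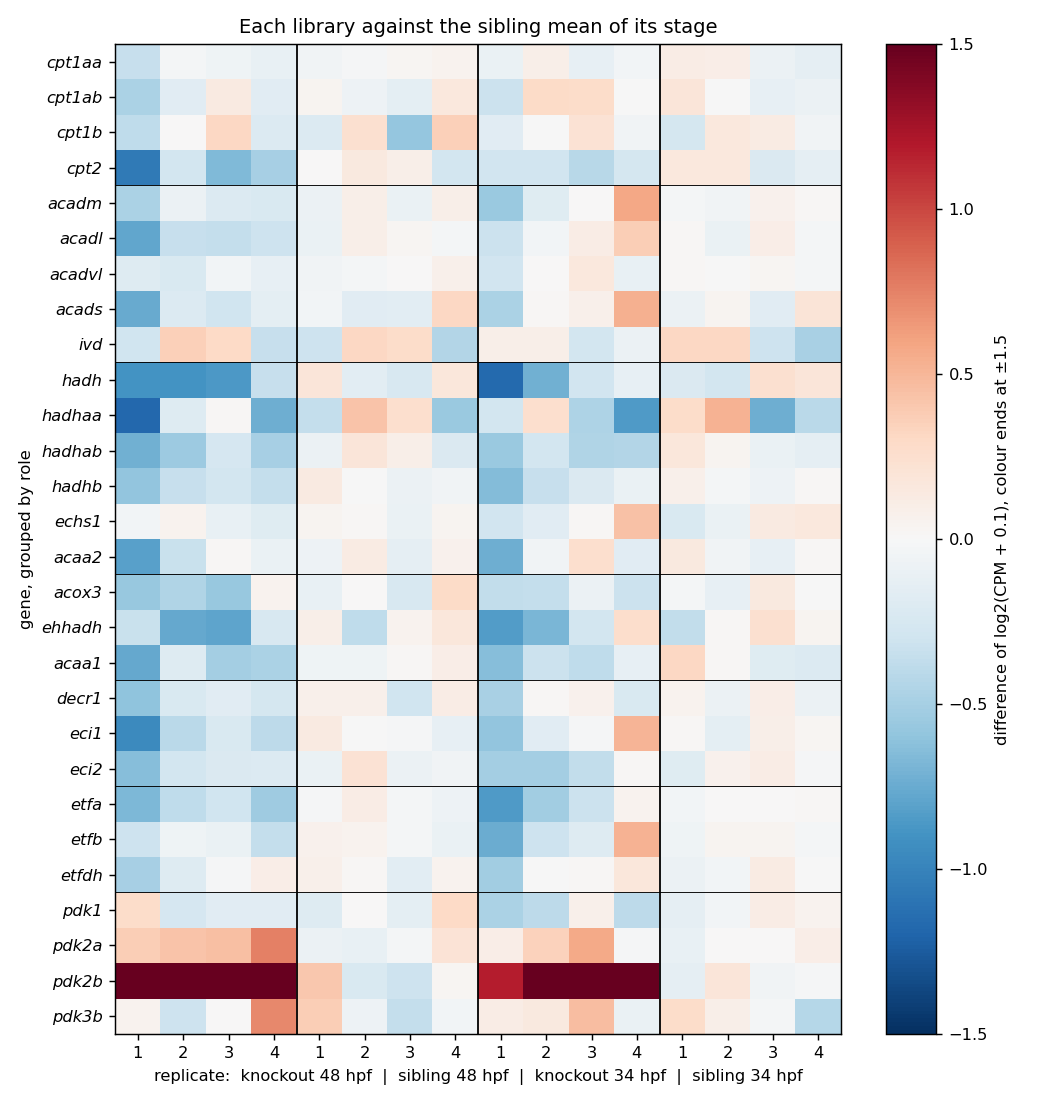
Difference of log2(CPM + 0.1) between each of the 16 libraries (columns, replicates 1 to 4 of each group) and the sibling mean of its stage, for the 28 genes tested (rows, in blocks by role), with red for higher and blue for lower. Knockout replicate 1 is blue for most genes at both stages, lowest of its group for 19 genes at 48 hpf and 21 at 34 hpf, and the row of pdk2b is red in all 8 knockout libraries.

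Whether the knockout effect differed between the stages was tested directly. No gene of the set was called (smallest adjusted p = 0.481, for acadl, in edgeR's test), against 0.203% of all genes tested (0.0872% higher and 0.116% lower), and 1 of the 28 had an unadjusted p under 0.05. DESeq2 called none either. The 9 calls at 48 hpf and the 2 at 34 hpf thus do not show that the effect differed between stages. The difference of the effects, 48 minus 34 hpf, was -0.03 ± 0.33 for pdk2b, -0.07 ± 0.16 for hadhab, -0.29 ± 0.21 for cpt2, -0.49 ± 0.18 for acadl, -0.21 ± 0.28 for hadh, -0.07 ± 0.15 for hadhb, -0.12 ± 0.21 for acaa1 and -0.09 ± 0.19 for etfa on the log2 scale.

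Between 34 and 48 hpf pdk1 and pdk2b rose and etfa fell in both genotypes, while most oxidation enzymes were not called. Here and below "with age" stands for 48 against 34 hpf. Because the labels give no batch apart from the stage, such a change cannot be told from a batch difference in either genotype. In knockouts 3 genes rose and 1 fell with age, 14.3% of the 28, against 27.7% of all genes tested (15.5% higher and 12.1% lower). In siblings the counts were also 3 and 1, against 33.9% of all genes (18.3% higher and 15.7% lower). The kinase gene pdk1 rose in both, with 42.1 ± 7.63 CPM at 48 hpf and 25.3 ± 4.76 CPM at 34 hpf in knockouts (0.74 ± 0.14, adjusted p = 0.000934; SD, n = 4) and 44.0 ± 7.09 CPM and 30.7 ± 2.31 CPM in siblings (0.52 ± 0.14, adjusted p = 0.00896 by edgeR).

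The gene pdk2b also rose with age, by 1.64-fold in knockouts (0.71 ± 0.23, adjusted p = 0.0294) and 1.67-fold in siblings (0.74 ± 0.25, adjusted p = 0.0317), in addition to the difference between genotypes. Both calls by edgeR lay close to the threshold. That in knockouts was lost without knockout replicate 1 of 34 hpf (0.50, adjusted p = 0.0572) and without replicate 1 or 3 of 48 hpf (adjusted p = 0.0792 and 0.0742). That in siblings was lost without replicate 1, 3 or 4 of 34 hpf or replicate 1 or 4 of 48 hpf (highest adjusted p = 0.103). The gene pdk2a rose in knockouts (0.54 ± 0.12, adjusted p = 0.00296) and was not called in siblings (0.29 ± 0.12, adjusted p = 0.0751), and the difference itself was not called (adjusted p = 0.866).

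Of the oxidation genes, acadl was not called with age in knockouts (23.0 ± 3.23 CPM at 48 hpf and 22.5 ± 4.49 CPM at 34 hpf, 0.03 ± 0.13, adjusted p = 0.895 by edgeR; SD, n = 4). In siblings it rose (31.1 ± 1.67 CPM at 48 hpf and 21.7 ± 1.30 CPM at 34 hpf, 0.52 ± 0.13, adjusted p = 0.00429). The difference itself was not called (adjusted p = 0.481). The gene etfa fell with age in both, in knockouts to 64.1 ± 7.51 CPM at 48 hpf, against 93.2 ± 24.4 CPM at 34 hpf (-0.54 ± 0.14, adjusted p = 0.00709), and in siblings to 88.5 ± 4.85 CPM, against 121 ± 1.99 CPM (-0.45 ± 0.14, adjusted p = 0.0165). Without sibling replicate 1 of 48 hpf the sibling call was lost (-0.42, adjusted p = 0.0576). The log2 fold changes of etfb were -0.43 ± 0.18, adjusted p = 0.0819 in knockouts and -0.34 ± 0.18, adjusted p = 0.160 in siblings. In knockouts the number of genes lower at 48 hpf was 8 in place of 1 without knockout replicate 1 of 34 hpf, the library that was lowest of its group for 21 of the 28 genes, with cpt1ab, acadm, acads, hadh, decr1, etfb and etfdh added to etfa. The age comparisons share their libraries with the genotype comparisons.

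Further genes of fatty acid oxidation were lower in part. Of 25 listed, 24 were tested, and 4 fell and 0 rose at 48 hpf (median log2 fold change -0.21; 16.7% called, against 10.0% of all genes tested), while 3 fell and 1 rose at 34 hpf (median -0.21; 16.7%, against 9.30%). The acyl-CoA dehydrogenase genes acad9 and acad11 fell at both stages. The gene acad9, which also helps to assemble respiratory complex I, changed by -0.44 ± 0.09, adjusted p = 0.00447 at 48 hpf, against -0.52 ± 0.09, adjusted p = 0.00140 at 34 hpf in edgeR's test. The gene acad11 changed by -0.87 ± 0.17, adjusted p = 0.00366 at 48 hpf, and at 34 hpf by -0.74 ± 0.17, adjusted p = 0.0110, where the call was lost with knockout replicates 2 and 3 only (adjusted p = 0.0513). The peroxisomal thiolase and carrier gene scp2a fell at 48 hpf (-0.73 ± 0.13, adjusted p = 0.00210), with 15.2, 16.2, 19.2 and 15.6 CPM in knockouts and 23.9, 32.9, 27.5 and 25.7 CPM in siblings.

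The single rise among them was that of slc22a5, a carnitine transporter gene, at 34 hpf (3.05 ± 0.72, adjusted p = 0.0120 in edgeR's test). The knockout libraries had 1.94, 4.66, 0.551 and 0.738 CPM and the siblings 0.328, 0.271, 0.117 and 0.221 CPM, so that replicates 1 and 2 were high. Without knockout replicate 2 the log2 fold change was 2.17 (adjusted p = 0.0523). At 48 hpf it was 1.22 ± 0.68, adjusted p = 0.307.

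In a list of the pyruvate dehydrogenase complex and its partners, some genes fell. Of 16 genes listed 14 were tested, and these include the kinase genes pdk4 and pdk3a given above. At 48 hpf 4 fell and 0 rose, and at 34 hpf 2 fell and 0 rose (medians -0.14 and -0.14). These are 28.6% of the list at 48 hpf, against 10.0% of all genes, and 14.3% at 34 hpf, against 9.30%. The share at 34 hpf was close to that of all genes. The gene dlat, encoding the acetyltransferase core of the complex, had 109, 100, 110 and 110 CPM in knockouts and 133, 144, 133 and 129 CPM in siblings at 48 hpf (-0.33 ± 0.07, adjusted p = 0.00508), and 81.2, 90.2, 86.1 and 86.8 CPM in knockouts and 113, 115, 121 and 126 CPM in siblings at 34 hpf (-0.46 ± 0.07, adjusted p = 0.000364). The groups did not overlap at either stage. The mitochondrial pyruvate carrier gene mpc2 fell at 34 hpf (-0.49 ± 0.07, adjusted p = 0.000253) and, close to the threshold, at 48 hpf (-0.22 ± 0.07, adjusted p = 0.0494). The phosphatase gene pdp2, which reverses the action of the kinases, was called at 48 hpf (-0.50 ± 0.15, adjusted p = 0.0439 in edgeR's test). The pdp2 call was lost without sibling replicate 2, 3 or 4 or knockout replicate 1, 3 or 4 (highest adjusted p = 0.141). It was also lost with no filter on low counts (adjusted p = 0.0519) and with only the compared libraries (adjusted p = 0.0847). The mpc2 call at 48 hpf was lost with the replicate block (adjusted p = 0.0784) and without sibling replicate 1, 2 or 3 or knockout replicate 2, 3 or 4 (highest adjusted p = 0.121). It was also lost with upper quartile scaling (adjusted p = 0.0729), no filter on low counts (adjusted p = 0.0957) and only the compared libraries (adjusted p = 0.0663).

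In the citrate cycle, where acetyl-CoA from either fuel is burned, 4 of 16 genes tested fell and 0 rose at 48 hpf, and 4 fell and 0 rose at 34 hpf (medians -0.16 and -0.11). This is 25% of the list at either stage, against 10.0% of all genes at 48 hpf and 9.30% at 34 hpf. Among the genes called at both stages were suclg2, cs and suclg1. The gene suclg2, a subunit of succinyl-CoA ligase, had 15.8, 22.9, 21.6 and 21.7 CPM in knockouts and 49.3, 49.1, 48.7 and 42.0 CPM in siblings at 48 hpf (-1.20 ± 0.16, adjusted p = 0.000124), and 18.5, 24.9, 18.0 and 32.8 CPM in knockouts and 75.0, 66.0, 74.2 and 66.1 CPM in siblings at 34 hpf (-1.58 ± 0.16, adjusted p = 9.71e-06). The citrate synthase gene cs changed by -0.45 ± 0.09, adjusted p = 0.00284 at 48 hpf, against -0.43 ± 0.09, adjusted p = 0.00412 at 34 hpf, in edgeR's test. The call of suclg1 at 48 hpf (-0.37 ± 0.10, adjusted p = 0.0251) was lost without sibling replicate 2 or 4 or knockout replicate 3 or 4 (highest adjusted p = 0.0767). Its call at 34 hpf was lost with only the compared libraries (adjusted p = 0.0620).

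Regulators and targets of the peroxisome proliferator-activated receptors (PPARs) were listed together with the acetyl-CoA carboxylase genes acaca and acacb. In mammals PPARs switch on oxidation genes and a pyruvate dehydrogenase kinase in fasting. Genes of this mixed list, with acaca among those that rose, moved both ways. Of 20 tested, 4 rose and 4 fell at 48 hpf, and 2 rose and 3 fell at 34 hpf (medians -0.01 and -0.02). Of all genes 4.76% rose and 5.28% fell at 48 hpf, and 4.09% rose and 5.21% fell at 34 hpf. Acetyl-CoA carboxylases make malonyl-CoA, which inhibits the carnitine palmitoyltransferases 1 and was not measured here. The carboxylase gene acaca rose at both stages (0.75 ± 0.13, adjusted p = 0.00135 and 0.54 ± 0.13, adjusted p = 0.0153 in edgeR's test). At 34 hpf that call was lost without sibling replicate 1 (adjusted p = 0.0504). The uncoupling protein gene ucp2 changed by 1.50 ± 0.27, adjusted p = 0.00181 at 48 hpf, against 0.96 ± 0.27, adjusted p = 0.0316 at 34 hpf, in edgeR's test. The 34 hpf call of ucp2 was lost with the replicate block (adjusted p = 0.0725) and with only the compared libraries (adjusted p = 0.114). It was also lost in each omission of a single library other than knockout replicate 1 (highest adjusted p of the omissions 0.0966). The lipase inhibitor gene angptl4 rose at 48 hpf (0.72 ± 0.17, adjusted p = 0.00941). The fatty acid binding protein gene fabp1b.1 fell at both stages (-3.24 ± 0.60, adjusted p = 0.00232 and -2.69 ± 0.59, adjusted p = 0.00759). The receptor gene pparab was called lower at 34 hpf (-0.58 ± 0.16, adjusted p = 0.0262) and not at 48 hpf (0.14 ± 0.15, adjusted p = 0.635), and the 34 hpf call was lost without sibling replicate 2, 3 or 4 or knockout replicate 2 or 3 (highest adjusted p = 0.0737).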

How the data were processed

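Whole-embryo RNA was isolated with TRIzol and sequenced from VAHTS Universal V8 libraries, per the labels' protocols. The authors deposited raw read counts per gene symbol, made with STAR 2.7.10b and featureCounts 2.0.6 on the build GRCz11 after Trim Galore 0.6.10 and FastQC 0.12.1, per the submitters' processing notes. The annotation, the use of strand and the handling of multiply aligned reads were not given in the sources used here, so paralogs with near-identical stretches and overlapping genes are uncertain. In the RefSeq table of GRCz12tu all 29 genes were found by symbol, and 10 overlap another gene (cpt1aa, acadvl, hadh, acaa2, acox3, ehhadh, eci2, etfa, pdk2a and pdk2b). The gene gstcd, which overlaps hadh, was called higher in knockouts at 34 hpf (0.65, adjusted p = 0.0178 in edgeR's test). At 48 hpf gstcd was not called (0.48, adjusted p = 0.0771). Of the genes overlapping acaa2, si:ch211-51h9.6 (-0.63, adjusted p = 0.0139) and slc25a25a (-0.74, adjusted p = 0.0235) were called lower at 34 hpf by edgeR. At 48 hpf neither was called (adjusted p = 0.219 and 0.422). Of the genes overlapping etfa, tmem266, lactb, tpm1 and tln2b were counted, and none was called at either stage.

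Genes were filtered with edgeR's filterByExpr, which left 24084 of 36109, and counts were scaled by TMM. One model with 4 group means took all 16 libraries (R 4.3.3, edgeR 4.0.16, glmQLFit and glmQLFTest). Genes were called at an adjusted p (Benjamini-Hochberg over all genes tested) below 0.05. Errors are SD over 4 libraries or SE of the log2 fold change. Precision is limited by the spread between the 4 libraries of a group, which is larger than counting noise. The genes and lists were chosen with earlier results of these data known. Of the 29 genes those called between genotypes, and all kinases, are given by library, and of each pathway list at most 4 called genes per comparison are named; not every one is reported here. Alternatives were DESeq2 1.42.0, edgeR with upper quartile scaling or with DESeq2's size factors, no filter, a CPM of at least 1 in 4 libraries, only the compared libraries, a replicate block and each library left out. The test was tried on simulated counts, with changes larger than those of the oxidation genes and with no library set apart. That trial does not show how well changes as small as those of the oxidation genes are found.

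Within a stage, deviations of same-numbered knockout and sibling libraries from their group means over 24084 genes, as log2(CPM + 1), correlated at 0.260, 0.230, 0.219 and 0.470 at 48 hpf and 0.127, 0.350, 0.314 and 0.201 at 34 hpf. All exceed 0.1, so the repeat number was tried as a block in an alternative, although its meaning is not labelled. The same-numbered sibling correlated best with knockout replicates 1 and 4 at 48 hpf and 2 and 4 at 34 hpf. For the other knockout replicates a differently numbered sibling correlated better. The main calls come from the model without a block, and whether the numbers pair the genotypes is not settled. Libraries of a group differed by more than counting noise, with 7.80 as the smallest mean ratio.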

Additional observations from a re-analysis of the deposited data

Results flagged for a closer look

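In 116 groups of 4 libraries (29 genes, 4 groups) 10 held a library whose gap to its nearest neighbour relative to the group's range exceeded Dixon's critical value for 4 samples. Chance gives about 1 in 20 groups. For hadh, replicate 4 of the knockouts at 48 hpf was apart with 42.5 CPM, against 29 to 29.8 CPM in the others, and still below every sibling. For acadl, replicate 1 of the same group was low (18.1 CPM, others 24.3 to 25.0 CPM). The gene acox3 was highest in replicate 4 of that group (6.99 CPM, others 4.49 to 4.89 CPM) and in replicate 3 of the knockouts at 34 hpf (5.56 CPM, others 4.55 to 4.70 CPM). The kinase gene pdk1 was high in replicate 1 of the knockouts at 48 hpf (53.4 CPM, others 36.8 to 39.1 CPM) and in replicate 3 of the knockouts at 34 hpf (32.4 CPM, others 22.1 to 23.4 CPM). Among the knockouts at 34 hpf replicate 3 was the lowest for cpt2 (9.45 CPM, others 10.3 to 10.5 CPM). The barely counted acadsb stood at 0.117 CPM in replicate 4 of the knockouts at 48 hpf and at 0.0449 to 0.0479 CPM in the others. Among the siblings at 48 hpf, replicate 3 was low for decr1 (17.9 CPM, others 23.2 to 23.9 CPM) and replicate 2 high for eci2 (27.4 CPM, others 22.1 to 22.7 CPM).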

How the results depend on the processing

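No call of the 28 genes changed direction under any alternative. The rise of pdk2b in the knockouts at both stages and the fall of hadhab at 48 hpf were called under every alternative run. With the replicate block 3 genes in place of 1 were lower in the knockouts at 34 hpf (hadhab, hadh and etfa), acaa1 lost its call at 48 hpf (also with upper quartile scaling and with no filter), and the block changed no other genotype call of the 28. Without single libraries the number of genes lower at 48 hpf was 2 to 5 in place of 7 and that of genes higher 1 to 2 in place of 2. At 34 hpf 0 to 6 were lower in place of 1 (6 without knockout replicate 4: hadhab, hadh, hadhb, eci2, etfa and etfb). Over all genes the calls between genotypes then numbered 1506 to 2259 in place of 2417 at 48 hpf and 1386 to 3208 in place of 2240 at 34 hpf, and those for the difference between stages 24 to 113 in place of 49. For age, 1 to 8 genes were lower in place of 1 and 2 to 4 higher in place of 3 in knockouts, and 0 to 1 lower in place of 1 in siblings.

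DESeq2 called 2 genes lower in the knockouts at 34 hpf, 3 lower with age in knockouts and 178 genes overall for the difference between stages. Only the compared libraries gave 1230 calls over all genes at 34 hpf, 6 genes higher and 3 lower with age in siblings and 0 lower in knockouts. With knockout replicates 2 and 3 only at 34 hpf, 2 genes were higher and 1 lower (etfa in place of hadhab) against siblings, and 1 was higher and 7 lower with age. Upper quartile scaling made 56.1% of the calls over all genes higher at 34 hpf, against 44.0%, without changing the calls of the set there. Between stages same-numbered libraries correlated at -0.0435, 0.252, -0.264, 0.367 in siblings and 0.229, 0.112, -0.188, 0.135 in knockouts and were not taken to pair stages. A block over both stages gave 2 genes lower with age in knockouts, and in siblings pdk2b lost its call (adjusted p = 0.0513). The causes of these shifts were not tested. Depth limits what can be seen for pdk3b and acadsb, which had few reads in every group.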

Other observations

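Among the further oxidation genes 1 rose and 4 fell of 24 from 34 to 48 hpf in knockouts (20.8%, against 27.7% of all genes tested). In siblings 4 rose and 4 fell of 24 (33.3%, against 33.9%), a share close to that of all genes. The gene phyh, which removes a carbon from branched phytanic acid in peroxisomes, changed by 0.77 ± 0.16, adjusted p = 0.00153 in knockouts and 1.06 ± 0.16, adjusted p = 5.46e-05 in siblings in edgeR's test. The gene mlycd, whose product breaks down malonyl-CoA, rose in siblings (1.04 ± 0.24, adjusted p = 0.00253) and was not called in knockouts (0.06 ± 0.24, adjusted p = 0.873), and the difference itself was not called (adjusted p = 0.402). The pyruvate carboxylase gene pcxb fell with age in both genotypes (-1.76 ± 0.25, adjusted p = 5.64e-05 in knockouts and -1.61 ± 0.25, adjusted p = 8.07e-05 in siblings). The kinase gene pdk3a, not in the set of 29, rose with age in both genotypes (0.77 ± 0.11, adjusted p = 3.15e-05 in knockouts and 0.59 ± 0.11, adjusted p = 0.000273 in siblings).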
